A study of Mus musculus with 4 samples.

Results

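The SOCS family comprises Cish, the gene of CIS, and Socs1 to Socs7, the genes of the suppressors of cytokine signalling. The members were the rows of the deposited table whose gene symbol was exactly 1 of these 8 names. All 8 were found among 34745 genes, and all 8 passed the filter on low counts. Each protein carries an SH2 domain, which binds phosphorylated tyrosines on receptors or kinases, and a C-terminal SOCS box, which recruits elongins B and C and a cullin-5 ubiquitin ligase. CIS, SOCS1, SOCS2 and SOCS3 are switched on by the cytokines that they restrain, through JAK kinases and STAT factors, and so close a negative feedback loop. In macrophages exposed to bacterial products, SOCS1 is known for limiting interferon signalling and SOCS3 for limiting the response to interleukin-6.

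The RNA came from adherent peritoneal macrophages, which wildtype C57BL/6 mice had been made to recruit with thioglycolate (3%, 2 ml) over 3 days. The title of the series speaks of macrophages grown from bone marrow, whereas every sample label names peritoneal cells, and the sample labels are followed here. All 4 samples were stimulated for 4 hours with 100 ng/ml LPS, the bacterial lipopolysaccharide sensed by Toll-like receptor 4. Before LPS, 2 samples were pre-treated with the solvent DMSO and 2 with MB-3 at 50 µM, which the labels call a GCN5 inhibitor (GCN5 is a histone acetyltransferase). No cells without LPS were analysed here, so no value shows how far LPS itself had raised a member. The labels do not tell if the 2 replicates of a group are separate cultures or mice. The p-values thus reflect the spread between the sequenced samples alone, and this spread may be technical.

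The libraries held 15598531 to 21320618 counts, and 1 count was worth 0.0466 to 0.0627 CPM (counts scaled to the library total with TMM factors). Of 11841 genes tested, 37.1% were called, 20.2% lower and 16.9% higher, with MB-3 at an adjusted p under 0.05 (quasi-likelihood test of edgeR, adjusted after Benjamini and Hochberg), and the median log2 fold change was -0.00987. Of 10 macrophage markers 5 fell, among them Fcgr1 (-2.38) and Cd14 (-0.98), 4 rose, among them Itgam (1.78), and Adgre1, the gene of F4/80, did not pass (0.08). The 7 T cell markers summed to 18.0 and 17.7 CPM with DMSO and to 2.63 and 2.96 with MB-3. Lck held most of each sum, 17.3 and 16.4 CPM with DMSO and 2.07 and 1.95 with MB-3, and fell by 3.06 on the log2 scale. Each of the other 6 T cell markers had at most 8 counts in any library, and Cd3e had 0 counts in 3 libraries and 2 in MB-3 replicate 2. The 7 neutrophil markers summed to 21.7 and 22.6 CPM with DMSO and to 12.5 and 9.93 with MB-3, nearly all of it from S100a8, which fell by 1.02. The other 6 had at most 10 counts in any library, and Ly6g and Elane had 0 counts in all 4. The 6 dendritic cell markers summed to 3.78 and 3.95 CPM with DMSO and to 6.26 and 6.81 with MB-3; Ccr7 rose by 1.28, Zbtb46 did not pass (0.65), and Xcr1 and Siglech had 0 counts in all 4 libraries. The 8 fibroblast and mesothelial markers were higher in replicate 2 of each group, at 106 against 49.0 CPM with DMSO and 129 against 66.7 with MB-3. No tested marker of resident peritoneal macrophages, B cells, eosinophils and mast cells or fibroblasts and mesothelium passed, and no natural killer cell marker was abundant enough to be tested. The part of these markers in the results on the SOCS genes was not tested.

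The family split into 4 members that fell, 1 that rose and 3 that did not pass the test, in a comparison that called 37.1% of all tested genes. Cish, Socs1, Socs2 and Socs3 were lower with MB-3, 50.0% of the members against 20.2% of all tested genes. Only Socs7 was higher, where 16.9% of all tested genes were. The groups did not overlap for 6 of 8 members, against 70.8% of all tested genes. The median log2 fold change of the family was -1.09. Of the 8 members, 3 had a log2 fold change of -3 or lower, a size reached by 1.7% of tested genes. In bulk RNA, fewer cells that express a gene and less RNA per cell cannot be told apart.

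**Figure D1:**
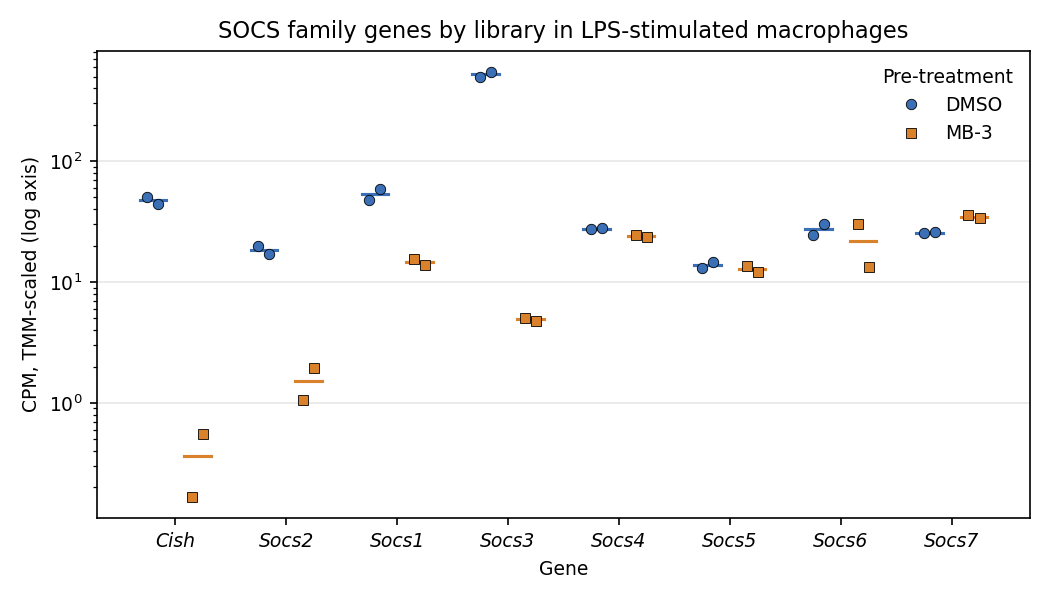
CPM of each SOCS family gene (log axis) in the 2 DMSO libraries (circles) and the 2 MB-3 libraries (squares), with a line at each group mean. Socs3 runs from 497 and 545 CPM down to 5.08 and 4.80, while Socs4 and Socs5 stay level and the MB-3 libraries of Socs6 lie apart, at 30.3 and 13.4 CPM.

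Promoter windows from 250 bases before to 50 after the RefSeq start site were at hand for 4 members, Cish, Socs1, Socs3 and Socs4 (RefSeq, build GRCm38.p6). The windows of the 3 that fell are printed 5′ to 3′ on the strand of the gene, because they hold letters known as sites of the factors upstream of the family. Capitals mark matches to TTCNNNGAA, the STAT motif, which reads the same on both strands, or to an interferon response motif, GAAA and GAAA with any 2 bases between them, searched on both strands.
Cish promoter, chr9:107296409-107296708, plus strand: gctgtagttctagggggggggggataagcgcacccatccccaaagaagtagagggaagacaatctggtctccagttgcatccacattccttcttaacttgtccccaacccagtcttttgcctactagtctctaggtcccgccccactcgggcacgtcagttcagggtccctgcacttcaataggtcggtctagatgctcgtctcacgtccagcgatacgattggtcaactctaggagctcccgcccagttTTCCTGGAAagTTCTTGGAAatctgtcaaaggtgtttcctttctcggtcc
Socs3 promoter, chr11:117969317-117969616, minus strand: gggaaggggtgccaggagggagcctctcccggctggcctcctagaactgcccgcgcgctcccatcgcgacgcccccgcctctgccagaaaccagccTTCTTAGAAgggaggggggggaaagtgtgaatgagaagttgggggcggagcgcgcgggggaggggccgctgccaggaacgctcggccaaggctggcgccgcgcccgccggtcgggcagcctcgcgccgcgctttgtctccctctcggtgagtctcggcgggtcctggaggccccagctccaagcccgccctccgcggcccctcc
Socs1 promoter, chr16:10785487-10785786, minus strand: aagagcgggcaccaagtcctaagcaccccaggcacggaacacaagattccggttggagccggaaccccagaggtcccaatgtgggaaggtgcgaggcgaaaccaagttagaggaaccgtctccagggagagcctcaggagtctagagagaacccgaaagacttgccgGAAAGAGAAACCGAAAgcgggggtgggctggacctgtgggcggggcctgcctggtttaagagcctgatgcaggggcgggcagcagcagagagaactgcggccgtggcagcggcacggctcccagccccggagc

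With the RefSeq start site counted as 0, the Cish window held 2 STAT matches, from 0 to 8 and from 11 to 19. The Socs3 window held 1, from -154 to -146. These start sites do not all match the ends of the deposited gene spans: that of Cish lies 633 bases inside its span and that of Socs3 681 bases inside, so all 3 STAT matches fall within the deposited genes, while that of Socs1 is the end of its span and that of Socs4 lies 11 bases outside. The Socs1 window held 2 overlapping interferon response matches, from -83 to -74 and from -77 to -68, and no STAT match. The Socs4 window, from a member that did not pass the test, held neither motif, and none of the 4 windows matched the NF-κB consensus. Among 32851 windows of this length, 8.30% held a STAT match and 0.457% held at least 2. The interferon response motif was in 3.44%, with at least 2 matches in 0.225%, and the NF-κB consensus in 8.46%. A match describes letters in the window and is not evidence of binding, and the absence of a match says nothing about sites elsewhere.

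**Figure D2:**
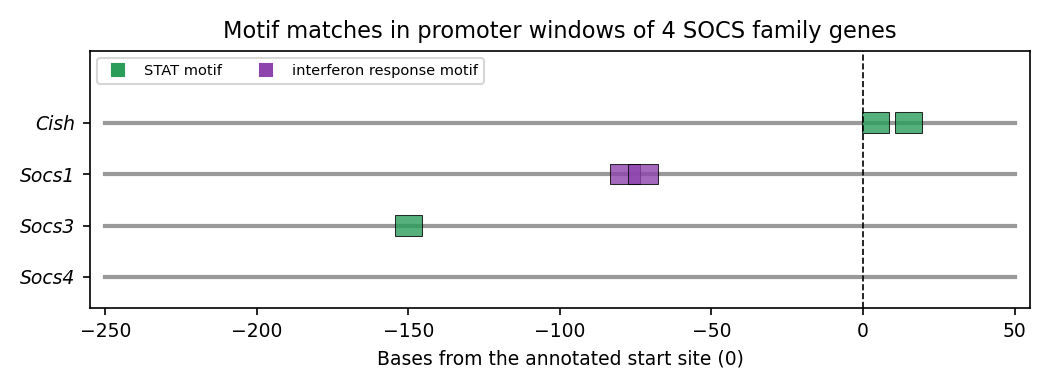
Positions of motif matches (boxes) in promoter windows of 4 SOCS family genes, in bases from the annotated start site at 0 (dashed line). Cish holds 2 STAT matches just after the start site, Socs3 holds 1 at -154, Socs1 holds 2 overlapping interferon response matches from -83 to -68, and Socs4 holds none.

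CIS and SOCS2 form the branch of the family best known for damping signals through STAT5, such as those of GM-CSF and growth hormone. Cish (ENSMUSG00000032578, chromosome 9 from 107296026 to 107302784, plus strand) had 1086 and 704 counts in DMSO replicates 1 and 2, and 3 and 10 counts in MB-3 replicates 1 and 2. On the scaled level these were 50.6 and 44.1 CPM with DMSO and 0.168 and 0.558 CPM with MB-3. Both MB-3 libraries lay far below both DMSO libraries, close to the limit of detection. Over the group totals the DMSO level was 132 times the MB-3 level, with an exact 95% interval for counting error alone from 76.9 to 248. The log2 fold change was -7.00 (SE 0.296, adjusted p = 2.36e-05, edgeR's quasi-likelihood test), and it ran from -8.09 without MB-3 replicate 2 to -6.39 without MB-3 replicate 1. It ranked 18th from the lowest among the tested genes. The 3′ UTR of its main transcript in GENCODE M21 (1087 bases) held 2 matches to TTATTTATT, the nonamer of AU-rich mRNA decay elements, and no other member's held any. That nonamer was in 7.51% of 11098 tested protein-coding genes, and 20.4% of the genes with it and 20.4% of those without it were lower. The table lists 2 genes that overlap Cish on the other strand, Gm17040 and Gm17041, with at most 4 counts in any library.

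Socs2 (ENSMUSG00000020027, chromosome 10 from 95385362 to 95417180, minus strand), whose product limits signalling by the growth hormone receptor, was counted 425 and 271 times in the DMSO libraries and 19 and 35 times in the MB-3 libraries. The levels were 19.8 and 17.0 CPM against 1.06 and 1.95 CPM, so the groups did not overlap, although the MB-3 libraries differed 1.84-fold from each other. The fall was shallower than that of Cish in size, a log2 fold change of -3.61 (SE 0.275, adjusted p = 2.03e-04, edgeR's quasi-likelihood test), the 128th lowest. The level per length of Cish over that of Socs2 was 3.22 and 3.28 in the DMSO libraries and 0.199 and 0.361 in the MB-3 libraries, on the deposited FPKM scale. The order of these 2 genes in both MB-3 libraries was thus the reverse of that in both DMSO libraries. The log2 ratio without a pseudocount moved by -3.60, from a mean of 1.70 with DMSO to -1.90 with MB-3. On the scale log2(FPKM + 0.1), on which the test was run, it moved by -2.27, from 1.63 to -0.64, since the MB-3 values of both genes, 0.0149 and 0.0516 FPKM for Cish and 0.0749 and 0.143 for Socs2, lie near or below the pseudocount (exact permutation test, two-sided, p = 0.333, the smallest that 2 samples against 2 allow).

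SOCS1 and SOCS3 are the members that can also block JAK catalysis directly, through a short kinase inhibitory region ahead of the SH2 domain. Socs3 (ENSMUSG00000053113, chromosome 11 from 117966079 to 117970047, minus strand), which restrains signalling through the shared interleukin-6 receptor chain gp130, was counted 10671 and 8704 times in the DMSO libraries, against 91 and 86 times in the MB-3 libraries. The levels were 497 and 545 CPM against 5.08 and 4.80 CPM. The replicates of each group lay within 1.10-fold of each other, and the group totals were 105-fold apart (exact 95% counting interval 90.4 to 122). The log2 fold change of -6.72 (SE 0.108, adjusted p = 1.70e-06, edgeR's quasi-likelihood test) had the smallest adjusted p in the family. By deposited FPKM it stood above 97.2% of the tested genes with DMSO and above 35.5% with MB-3.

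Socs1 (ENSMUSG00000038037, chromosome 16 from 10783808 to 10785536, minus strand), whose product blocks JAKs of the interferon receptors, was counted 1019 and 938 times in the DMSO libraries, and 275 and 250 times in the MB-3 libraries. The levels were 47.5 and 58.8 CPM against 15.4 and 13.9 CPM, again without overlap. This was the smallest of the 4 falls, 3.57-fold over the group totals (exact 95% counting interval 3.24 to 3.94), with a log2 fold change of -1.86 (SE 0.138, adjusted p = 1.83e-04, edgeR's quasi-likelihood test). The gene reaches further at its 3′ end in GENCODE M21, to 10782240, and what the counts hold of that stretch was not tested. Socs3 stood at 3.89 and 3.44 times the FPKM of Socs1 in the DMSO libraries and at 0.123 and 0.128 times in the MB-3 libraries. On the scale log2(FPKM + 0.1) that ratio moved by -4.78, from 1.87 to -2.92, and by -4.87 without a pseudocount (exact permutation test, two-sided, p = 0.333, again the smallest possible).

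**Figure D3:**
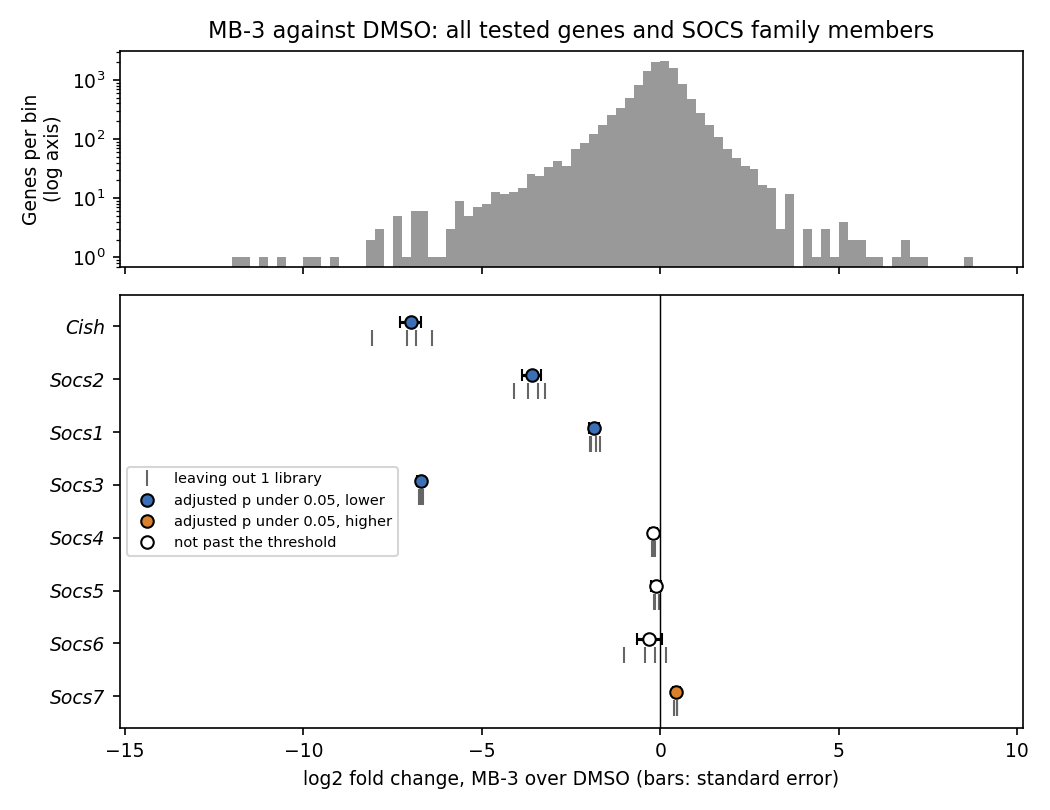
Top, log2 fold changes of all 11841 tested genes (bins on a log axis); bottom, the same measure for each SOCS family gene with its standard error, and ticks for the 4 fits that leave out 1 library. Cish and Socs3 sit near -7, in the thin lower tail of all genes, and the ticks of Socs6 fall on both sides of 0, from -1.02 to 0.16.

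The other 4 members have products with longer N-terminal regions and are less tied to cytokine feedback. SOCS4 and SOCS5 are related to each other and are known to act on the epidermal growth factor receptor, SOCS5 also on interleukin-4 signalling. Socs4 (ENSMUSG00000048379, chromosome 14 from 47276931 to 47296098) was at 27.5 and 27.7 CPM with DMSO and at 24.5 and 23.4 CPM with MB-3. Both MB-3 libraries were a little below both DMSO libraries, but the log2 fold change of -0.20 (SE 0.101, adjusted p = 0.164, edgeR's quasi-likelihood test) did not pass. Socs5 (ENSMUSG00000037104, chromosome 17 from 87107679 to 87137583) was at 13.1 and 14.6 CPM with DMSO and at 13.5 and 12.1 CPM with MB-3. Its groups overlapped, and the log2 fold change was -0.12 (SE 0.141, adjusted p = 0.561, edgeR's quasi-likelihood test).

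Socs7 (ENSMUSG00000038485, chromosome 11 from 97362551 to 97398542), whose product binds the adaptor NCK and insulin receptor substrates, was at 25.4 and 25.9 CPM with DMSO and at 35.6 and 33.6 CPM with MB-3. Both MB-3 libraries were higher than both DMSO libraries, and the replicates lay within 1.06-fold. The log2 fold change was 0.44 (SE 0.0975, adjusted p = 0.0154, by the same edgeR test). Leaving out MB-3 replicate 1 gave 0.39 with an adjusted p of 0.0823, while over 12 alternatives edgeR, DESeq2 and limma gave adjusted p-values from 0.0108 to 0.0823.

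Socs6 (ENSMUSG00000056153, chromosome 18 from 88665224 to 88927481), whose product acts on the receptor tyrosine kinase KIT and on insulin signalling, was counted 524 and 480 times in the DMSO libraries, yet 543 and 240 times in the MB-3 libraries. The levels were 24.4 and 30.1 CPM against 30.3 and 13.4 CPM. MB-3 replicate 1 lay just above the higher DMSO library and MB-3 replicate 2 far below both, so the Socs6 value rests on which MB-3 library is read. The log2 fold change of -0.31 (SE 0.351, adjusted p = 0.522, edgeR's quasi-likelihood test) became -1.02 with an adjusted p of 0.0145 without MB-3 replicate 1, and 0.16 without MB-3 replicate 2. Among 7522 genes that averaged 10 CPM or more, 29, or 0.386%, were at least 2-fold higher in MB-3 replicate 1 than in MB-3 replicate 2, and the median difference between the MB-3 replicates was 1.08-fold. The 3 genes nearest to Socs6 in profile were picked by likeness to its values in these same libraries. Low values in MB-3 replicate 2 thus follow from the choice. They were C1d, Zfp639 and the phosphatase catalytic subunit gene Ppp1cb. In MB-3 replicates 1 and 2 Ppp1cb was at 205 and 94.3 CPM, C1d at 60.8 and 33.3 and Zfp639 at 44.1 and 20.0.

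Levels of different members can be compared only per length, and the length behind the deposited FPKM needs care. For Cish the counts and FPKM imply a length of 10850 bases, more than the gene's whole span of 6759 bases, and for Socs3 they imply 3288 bases, the summed length of its 3 transcripts in GENCODE M21. The implied length exceeded the span for 5.91% of the genes with a count. Since this length is not the exon length for every gene, CPM per kilobase of merged exons within the deposited span was computed beside it, after the data were seen. On that scale Socs3 was at 180.0 ± 11.7 with DMSO (SD, n = 2), Socs1 at 39.7 ± 5.95, Cish at 7.38 ± 0.717, Socs4 at 4.02 ± 0.0152 and Socs7 at 3.53 ± 0.0507. Socs6 (2.40 ± 0.352) and Socs5 (2.25 ± 0.167) overlapped each other and were followed by Socs2 at 1.93 ± 0.210. With MB-3 the order was Socs1 at 10.9 ± 0.748 CPM per kilobase, Socs7 at 4.77 ± 0.195 and Socs4 at 3.49 ± 0.113. Below them Socs5 (2.08 ± 0.156) overlapped Socs6 (1.93 ± 1.06), which also overlapped Socs3 (1.71 ± 0.0701), and Socs2 (0.158 ± 0.0661) and Cish (0.0565 ± 0.0430) came last. By deposited FPKM the top of both orders was alike, but Socs5 stood above Socs6 with DMSO, without overlap, and Socs3 above Socs6 with MB-3, with overlap. Merged exons pool all transcripts of a gene, 9531 bases for Socs2 and 6419 for Cish, whose main transcripts have 2222 and 2850 bases. For Socs4 the 2 lengths are nearly equal, 6873 and 6877 bases. A longer length lowers the value, so the last place of Socs2 with DMSO may come from the length chosen. Levels per main transcript were not computed.

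The make-up of the family's transcript pool also differed between the groups. The 8 members summed to 210.0 and 238 FPKM with DMSO and to 26.8 and 24.8 with MB-3. The sum of Socs4 to Socs7 was 12.1 and 13.2 FPKM with DMSO and 13.0 and 11.7 with MB-3, so the groups overlapped there. Socs3 alone made up 72.0 ± 0.824% of the FPKM sum with DMSO (SD, n = 2) and 5.74 ± 0.233% with MB-3. Socs1 went from 19.7 ± 1.46% to 45.9 ± 0.602% although its own level fell. Socs7 went from 1.58 ± 0.0980% to 17.9 ± 0.728%, and Socs4 from 1.83 ± 0.133% to 13.3 ± 0.656%. Per kilobase of merged exons the shares of Socs3 were 74.7 ± 0.505% and 6.82 ± 0.326%, and those of Socs1 were 16.4 ± 1.29% and 43.6 ± 0.889%.

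**Figure D4:**
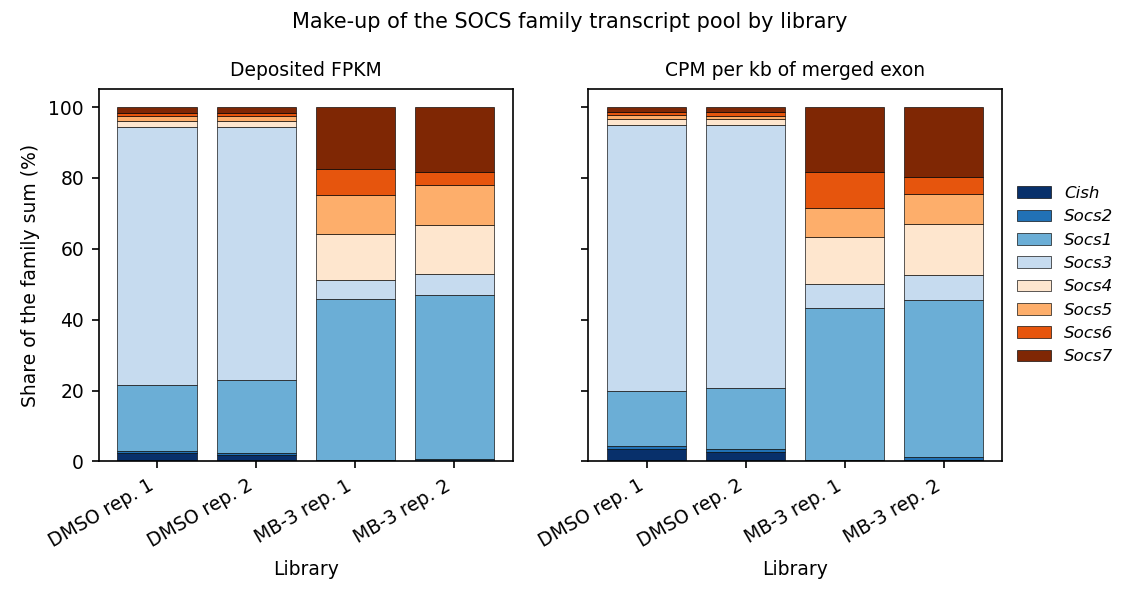
Share of each SOCS family gene in the family sum (%) in each library, by deposited FPKM (left) and by CPM per kilobase of merged exons (right). On either scale Socs3 fills over 70% of the DMSO bars and under 8% of the MB-3 bars, where Socs1 is the largest part.

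The nearest tested gene on either side of each member on the chromosome was read for a change of the same direction. The distances ran from 0.074 kb (Wdhd1 from Socs4) to 3710 kb (Timm21 from Socs6), so some of these neighbours lay far away. On either side of Cish, Mapkapk3, a gene of a kinase downstream of p38, fell by 1.02 on the log2 scale (SE 0.111) and Hemk1, a methyltransferase gene, fell by 0.92 (SE 0.236). Beside Socs3, Pgs1, a gene of cardiolipin synthesis, fell by 0.62 (SE 0.0819) and Tha1 fell by 1.90 (SE 0.281), from 4.61 and 4.82 CPM to 1.23 and 1.28. All 4 falls were much smaller than those of the members beside them. The neighbours of Socs1, Clec16a (-0.00, SE 0.121) and Litaf (-0.14, SE 0.0658), did not pass, nor did those of Socs2, Cradd (0.01, SE 0.415) and Mrpl42 (0.02, SE 0.120). Of all 16 nearest tested neighbours of the family, 4 were lower, 1 was higher (Mcfd2 beside Socs5, 0.26) and 11 did not pass in edgeR's quasi-likelihood test, against 20.2% lower and 16.9% higher among all tested genes.

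Genes most like a member in profile were sought for members that averaged at least 10 CPM, which left out Socs2. The candidates were 7275 genes that averaged at least 10 CPM, without predicted genes. The measure was the distance between log2 CPM values centred on each gene's mean over the 4 libraries. With 2 groups of 2 libraries such likeness mostly reflects a fold change of similar size. For Socs3 the nearest were Csf2 (distance 0.372), Ms4a4c (0.799) and Il1a (0.985), and for Cish they were Csf2 (0.949), Ms4a4c (1.04) and Tnfsf10 (1.05). Csf2, the gene of GM-CSF, had 20.0 and 22.9 CPM with DMSO and no count in either MB-3 library. Set against a floor of 3 counts for the MB-3 group, Csf2 was at least 253-fold lower, and its distance depends on the prior count of 3. Nearest to Socs1 were Slfn8 (0.0578), Fam49a (0.136) and Clec2d (0.147), with log2 fold changes of -1.84, -1.87 and -1.76. Nearest to Socs7 were Etf1 (0.0063), Nucks1 (0.0246) and Nars (0.0258), which rose by 0.44, 0.43 and 0.44. Socs4 lay nearest to Tmem126a, Ostf1 and Tug1 and Socs5 to Galnt4, BC002163 and Xrcc4, none of them past the threshold.

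The genes around the family were read from 9 lists, some of which share genes, and each count stands against 20.2% lower and 16.9% higher among all tested genes. Of 16 tested ligands that signal through JAKs, 11 fell and 0 rose, with a median log2 fold change of -3.84. Il6, the gene of the cytokine that SOCS3 restrains, went from 517 and 547 CPM to 11.6 and 10.9 (-5.56, SE 0.0929), and Il15 from 572 and 555 to 33.8 and 31.5 (-4.11, SE 0.0843). Osm, the gene of oncostatin M, was level at 24.1 and 27.7 CPM against 26.1 and 27.2 (0.04, SE 0.114). Of 24 tested receptors, 11 fell, 2 rose and 11 did not pass, with a median of -0.36. Il4ra fell by 1.22 (SE 0.0879), Il7r, the interleukin-7 receptor gene, rose from 146 and 120 CPM to 723 and 579 (2.29, SE 0.144), and Il6st, the gene of gp130, rose by 0.99 (SE 0.0860). Csf2ra, the gene of the alpha chain of the GM-CSF receptor, had a log2 fold change of 0.23 (SE 0.0781) and did not pass. Csf2rb, a gene of the receptor's beta chain, fell from 297 and 254 CPM to 158 and 130 (-0.94, SE 0.125).

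Of 10 genes of JAK kinases and STAT factors, 8 fell and 0 rose, with a median of -1.22. Stat5a, a gene of the factor upstream of Cish and Socs2, fell from 199 and 159 CPM to 15.9 and 12.3 (-3.67, SE 0.172). Stat5b, the other gene of that factor, fell by less, from 48.4 and 38.8 CPM to 21.5 and 18.8 (-1.12, SE 0.142). Jak2 fell by 1.81 (SE 0.0893). Stat3, the gene of the main activator of Socs3, fell by a much smaller step, 0.32 (SE 0.0839), from 90.4 and 86.1 CPM to 72.5 and 68.8. Jak1 was at 254 and 221 CPM against 257 and 219 and did not pass. In edgeR's quasi-likelihood test the adjusted p was 3.33e-05 for Stat5a, 0.00175 for Stat5b, 3.82e-05 for Jak2, 0.0267 for Stat3 and 0.990 for Jak1.

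**Figure D5:**
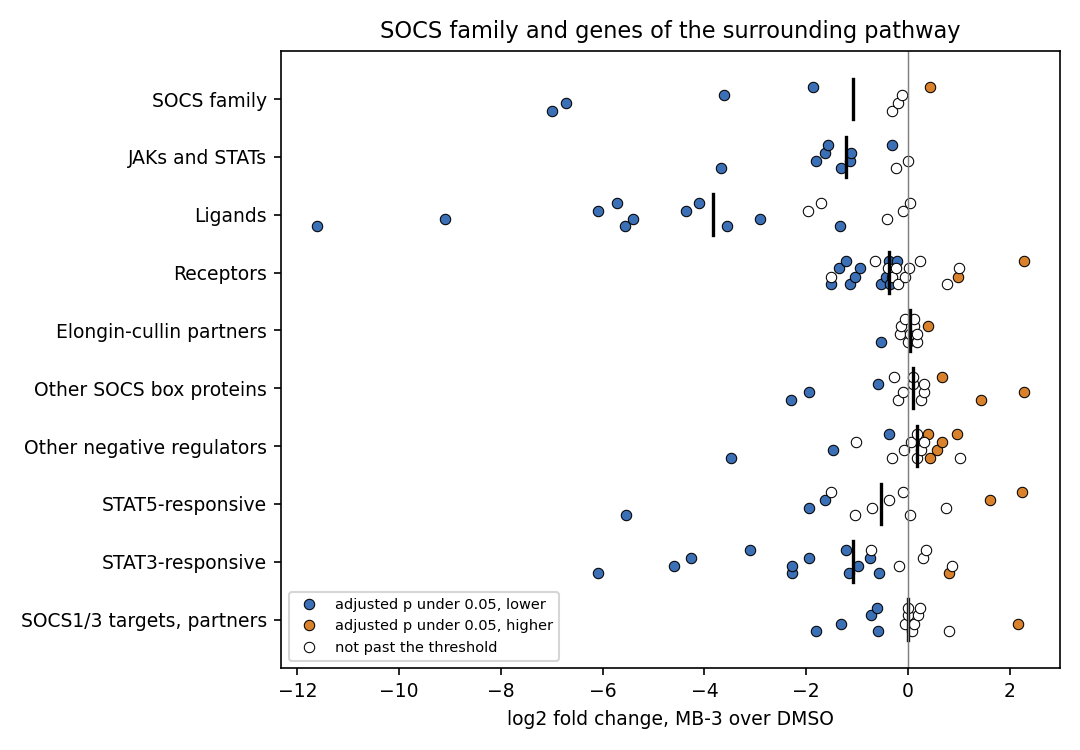
Log2 fold changes (MB-3 over DMSO) of the SOCS family and of the tested genes of 9 pathway lists, with a line at each median. The ligands have the lowest median, -3.84, and the elongin-cullin partners lie close to 0, between -0.52 and 0.39.

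The ubiquitin machinery that the SOCS box recruits moved little. Of 11 elongin, cullin and partner genes, 1 fell (Cul2, -0.52), 1 rose (Ube2f, an E2 enzyme gene, 0.39) and 9 did not pass, with a median of 0.05. Cul5, the cullin gene of SOCS complexes, was at 20.1 and 23.9 CPM with DMSO and at 23.9 and 20.5 with MB-3 (0.01, SE 0.140). Nedd8, the gene of the ubiquitin-like protein that activates cullins, did not pass either (0.12, SE 0.108). The genes of the elongins, listed as Tceb1 and Tceb2, had log2 fold changes of 0.05 and 0.13 and did not pass. Of 14 tested genes of other SOCS box proteins, 3 fell, 3 rose and 8 did not pass, with a median of 0.11. Spsb4 rose by 2.29 (SE 0.123) and Asb13 fell by 2.30 (SE 0.137), while Wsb1, at 139 and 144 CPM with DMSO, did not pass (0.26, SE 0.0850).

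Of 17 other negative regulators of JAK-STAT signalling, 3 fell, 5 rose and 9 did not pass, with a median of 0.18. The deepest fall was that of Usp18, whose product blocks the interferon receptor, from 889 and 873 CPM to 75.8 and 82.7 (-3.47, SE 0.0816). Ptpn6, the gene of the phosphatase SHP-1, fell by 1.48 (SE 0.0940), and Ptprc, the gene of the phosphatase CD45, did not pass (0.26, SE 0.154). Cbl, a ubiquitin ligase gene, rose by 0.97 (SE 0.144).

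The lists of STAT5-responsive and STAT3-responsive genes each held falls and rises, and the part of STAT activity in the results on the members was not tested. Of 12 STAT5-responsive genes, 3 fell, 2 rose and 7 did not pass, with a median of -0.54. Ccnd2, the cyclin D2 gene, fell from 276 and 234 CPM to 5.53 and 5.36 (-5.55, SE 0.130), while Gadd45g rose from 15.9 and 14.9 to 76.1 and 69.8 (2.24, SE 0.101). Of 18 STAT3-responsive genes, 12 fell, 1 rose and 5 did not pass, with a median of -1.07. Icam1, an adhesion molecule gene, fell by 4.26 (SE 0.0909) and Junb fell by 2.28 (SE 0.0781), while Mcl1 did not pass (-0.18, SE 0.0772) and Bcl3 rose by 0.81 (SE 0.141).

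Of 14 tested genes whose products have been reported as targets or partners of SOCS1 or SOCS3, 5 fell, 1 rose and 8 did not pass, with a median of 0.00. Among them were Tyk2 (-1.31, SE 0.0982) and Rela, a subunit gene of NF-κB (-0.72, SE 0.119), while Traf6 (0.24, SE 0.124) and Irak1 (0.00, SE 0.114) did not pass.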

How the data were processed

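Mouse macrophage RNA enriched on oligo(dT) beads went into strand-specific libraries, per the labels' protocols. A single deposited table gave counts, which the authors left as whole numbers per gene without normalization, and deposited FPKM values, which equal the counts over library total and a gene length (agreement within 0.1% for 100% of 12802 genes). Per the submitters' processing notes, the tools were edgeR, StringTie (version 1.3.0) and HISAT2, with GRCm38.p4 and mm10 as builds; annotation release, strand setting and multi-mapped reads: not given in the sources used here. Column names were matched to titles by group initial and replicate number.

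The test on counts was that of edgeR (version 4.0.16, under R 4.3.3; filterByExpr, TMM, glmQLFit and glmQLFTest, group only) over all 11841 tested genes, with Benjamini-Hochberg adjustment and a threshold of 0.05. The SE of a log2 fold change is its size divided by the root of F. DESeq2 1.42.0 and limma 3.58.1 on log2(FPKM + 0.1) and log2(FPKM + 1) were alternatives, with other scalings, filters, a block and each library left out. Intervals and floors cover counting error only. On counts simulated for this comparison and 11681 genes, edgeR recovered 99.0% of the 2-unit and 87.6% of the 1-unit log2 changes, with 6 false calls. The simulation gave all genes 1 common dispersion and changed only 98 genes by 2 units and 97 by 1 unit. In the data 37.1% of genes were called and the spread differs by gene, so these rates need not hold there. The replicate libraries differed by more than sampling noise (chi-square per degree of freedom 13.0 for DMSO and 11.1 for MB-3). Gene coordinates are those of the deposited table; strand, exons and 3′ UTRs come from GENCODE M21.

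The members and lists were chosen with earlier results of these data known. Genes named from a pathway list were the 2 called genes with the smallest p and the most abundant gene that was not called. Others (Csf2, Csf2rb, Il6st, Stat3, Stat5b, Cul5, the elongins, Cbl, Bcl3, Rela, Traf6, Irak1 and the named cell type markers) were chosen after their values were seen. A gene of the pathway and a list built around it are not reported here.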

Additional observations from a re-analysis of the deposited data

How the results depend on the processing

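Over 12 alternatives, Cish, Socs1, Socs2 and Socs3 stayed lower and past the threshold, and Socs4 and Socs5 stayed lower and short of it. The log2 fold change of Cish ran from -8.09 to -2.39, the latter on log2(FPKM + 1), and that of Socs2 from -4.11 to -1.09; a pseudocount shrinks the change of low genes. Socs6 reversed to 0.16 without MB-3 replicate 2 and passed at -1.02 without MB-3 replicate 1, so that 5 members were then called lower. Leaving out a library gave Socs6 values from -1.02 to 0.16 and Socs7 values from 0.39 to 0.48. Socs7 missed the threshold without MB-3 replicate 1, which left 0 members higher by edgeR's quasi-likelihood test, and 1283 of all genes higher against 1999; the other omissions gave up to 1 member and up to 1802 genes.

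The share of Socs3 in the family sum was 71.0% with DMSO and 4.33% with MB-3 on CPM not divided by length, and 74.7% and 6.82% per merged exon length; that of Socs1 was 7.21% and 12.8% on CPM, and 16.4% and 43.6% per merged exon length. These shares depend on the length used, and merged exons were chosen after seeing the data. With the replicate number as a block, 2706 genes were lower and 2340 higher, and the same 4 members fell and 1 rose. Same-numbered libraries deviated together weakly (r = 0.173 across genes), and 2 pairs cannot show that the numbers pair the samples. Without a pseudocount, chosen after seeing the data, the log2 ratio of Cish to Socs2 moved by -3.60 and not by -2.27. Counts of 3 and 10 limit the size of the Cish fall.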
